A study of Rattus norvegicus with 6 samples.

Results

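The miR-15/16 family with miR-322 and miR-503 was followed by 7 PCR assays, mmu-miR-15a, mmu-miR-15b, mmu-miR-16, mmu-miR-195, mmu-miR-497, mmu-miR-322 and mmu-miR-503, called miR-15a and so on here, which were chosen by name from the 375 miRNA assays of a rodent TaqMan card. The card compared myocyte-derived cells (MDCs), loosely attached cells that come out of cultures of purified adult cardiomyocytes, with the cardiomyocytes themselves, 3 sets of values each. Every set came from Wistar-Kyoto rats labelled as 2 months old, with no transgene. By the labels, no added agent differed between the groups. The labels name the MDCs as dedifferentiated progenitor cells and the myocytes as mature heart cells. For both groups the labels give 2 weeks of culture in mitogen-rich medium. In the paper the myocytes are freshly isolated, from male and somewhat younger rats, and the cultures that gave MDCs were kept with added growth factors and serum. The state of the myocytes at harvest, and whether they met these additions, is thus not settled by the sources. Each well gives a Ct, the PCR cycle in which its fluorescence crossed the threshold, and a lead of 1 cycle means roughly 2 times as much template.

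miRNAs of this family begin with nearly the same bases, and the seed, bases 2 to 8 of a miRNA, is the stretch that pairs with target mRNAs. In mammalian cells the family is known to repress D-type and E-type cyclins, the checkpoint kinase Chek1 and the survival gene Bcl2, and so to restrain the cell cycle. In mouse heart, miR-195 is known to rise after birth, when cardiomyocytes leave the cell cycle, and in mouse muscle cells miR-322 and miR-503 act on the phosphatase Cdc25a during exit from the cycle. The assays carry mouse names, and the rat sequences of RefSeq (build GRCr8) are shown here to make plain how little separates the members, with the seed in capitals.
miR-15b: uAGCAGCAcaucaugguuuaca
miR-16: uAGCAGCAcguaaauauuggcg
miR-195: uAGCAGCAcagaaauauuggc
miR-497: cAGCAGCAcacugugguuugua
miR-322, 5′ arm: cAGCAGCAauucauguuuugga
miR-322, 3′ arm: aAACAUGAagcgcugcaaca
miR-503, 5′ arm: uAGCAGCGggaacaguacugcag
The seed AGCAGCA stands at bases 2 to 8 of 5 of 693 rat mature miRNAs (0.722%), namely miR-15b, miR-16, miR-195, miR-497 and the 5′ arm of miR-322. miR-503 differs in the last base of the seed, and its AGCAGCG is found in 1 of 693 (0.144%). The name of the miR-322 assay does not give an arm, so both are shown, and the 3′ arm does not carry the family seed. miR-15a is named only, since the RefSeq reference used here has no rat entry for it. What its mouse assay reads in rat RNA was not checked. Over the bases compared from the 5′ end, miR-16 and miR-195 were identical at 19 of 21 positions, miR-15b and miR-497 at 16 of 22, miR-15b and miR-16 at 14 of 22, and miR-195 and miR-497 at 12 of 21.

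The genes lie in pairs. Mir15b and Mir16 lie on the plus strand at chr2:155555178-155555421, with 51 bases between the hairpins. Mir497 and Mir195 lie on the plus strand at chr10:55450171-55450581, with 255 bases between them. Mir322 and Mir503 lie on the minus strand at chrX:137725856-137726241, with 220 bases between them, at the start of a cluster that runs on through Mir351, Mir542 and Mir450b-1 to Mir450a1 over 5309 bases in all. In mouse, miR-16 is also made from another gene, beside that of miR-15a.

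The card had 384 wells with 381 distinct assays, and a Ct below the limit of 40 was read as a signal. Of the 375 miRNAs, 201 had a signal in each MDC set, and 212, 203 and 203 had one in Myocyte 1, 2 and 3. The wells with signal were the same ones in all 3 MDC sets, and so was the order of Ct among the 4 U6 wells. The same held for Myocyte 2 with Myocyte 3. These were taken as repeated readings of 1 card and averaged, which left 1 MDC sample and 2 myocyte samples. MDC 1 stood apart from the others in another way. Of its 208 wells with signal, 207 (99.5%) had a Ct within 0.1 cycle of a whole cycle, against 16.7% to 21.6% of the wells in the other 5 sets. Its values are thus known to about 1 cycle at best, and the main results are also given without it. A level here is the mean Ct of the 4 U6 wells of a set minus the Ct of the assay, on a log2 scale, and every difference is MDC minus myocyte. The range of level over the 3 MDC readings was 0.97 for miR-16 and 2.16 for miR-497, with MDC 1 the lowest. MDC 1 can thus stand more than 1 cycle from the readings it was averaged with, by an amount that differs between assays. The reason was not tested. limma was fitted to the 157 miRNAs with signal in every sample, with Benjamini-Hochberg adjustment over all of them. It gave every miRNA the same SD of 0.28, hence a standard error of 0.35 for each difference. That error comes from the 2 myocyte samples alone, the lone MDC sample being assumed to vary as they do, and the sources do not tell whether these are separate preparations. An exact permutation of 1 sample against 2 cannot give a p below 0.333.

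All 5 members with signal in both groups were lower in MDCs relative to U6, by 23.6-fold for miR-15b and by 1.70-fold to 4.10-fold for the others. miR-322 had signal in myocytes only and miR-503 in MDCs only. The count of 5 of 5 lower has to be read against the whole card, where the calls were 82 of 157 lower (52.2%) and 44 higher (28.0%) and the median difference was −0.80 log2 units (74 lower, 54 higher and a median of −0.30 without MDC 1). Counted from the lowest difference of the 157, miR-15b was at rank 24, miR-195 at 52, miR-16 at 59, miR-497 at 78 and miR-15a at 80. The last pair therefore lay at the middle of all miRNAs. Relative to U6, the 3 MDC values lay below all 3 myocyte values for 4 of the 5 members, the exception being miR-497, against 49.7% of all tested miRNAs that lay below in this way and 23.6% that lay above. The cells were measured in bulk, so fewer cells of a type and less RNA per cell cannot be told apart.

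**Figure D1:**
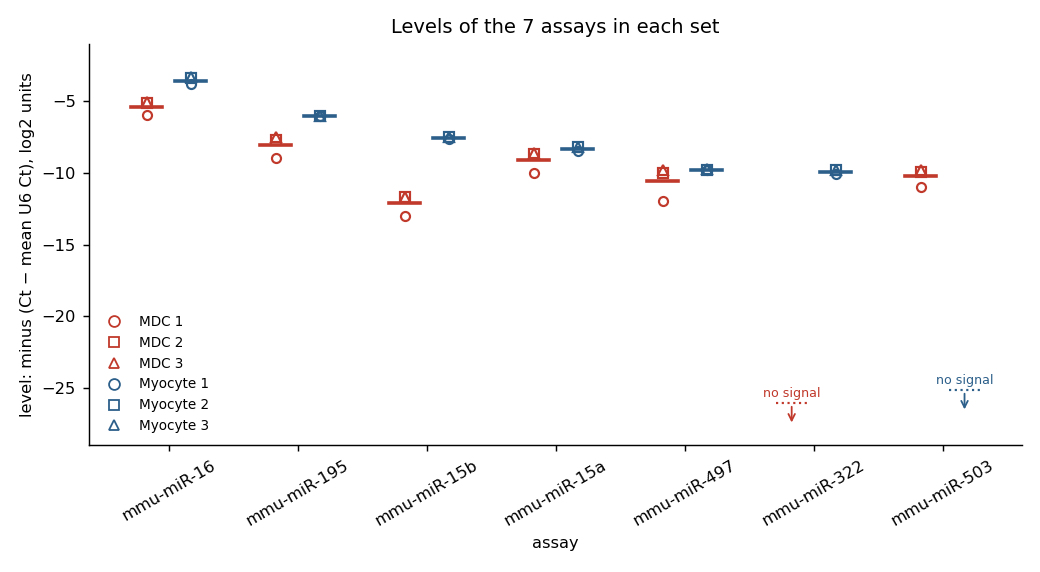
Levels of the 7 assays relative to U6 (log2 units, y axis) in the 3 MDC sets (red) and the 3 myocyte sets (blue), with horizontal lines at the group means over samples and dotted lines with arrows where a group had no signal and only a limit with Ct 40 can be drawn. The gap between the groups is widest for miR-15b among the assays with signal in both, and MDC 1 is the lowest MDC value of each of the 6 members with signal in MDCs.

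miR-15b had a Ct of 27.0, 25.1 and 26.1 in MDC 1, 2 and 3, against 22.3, 22.4 and 22.6 in Myocyte 1, 2 and 3. Its levels were −13.02, −11.66 and −11.70 in MDCs, against −7.65, −7.50 and −7.46 in myocytes. The groups stood far apart, and the spread of either was small beside the gap. The mean level was −12.13 in MDCs (1 sample, 3 readings) and −7.57 ± 0.12 in myocytes (SD, n = 2), a difference of −4.56 (95% interval −5.24 to −3.88, limma adjusted p = 2.2e-26). Without MDC 1 the difference was −4.12. By Ct, miR-15b was the 146th, 137th and 136th earliest miRNA in the MDC sets, against the 70th, 72nd and 72nd in the myocyte sets.

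miR-16, made from the hairpin next to that of miR-15b, was the most abundant member by Ct in both groups. Its Ct was 20.0, 18.5 and 19.5 in MDCs, against 18.4, 18.3 and 18.4 in myocytes. Its levels were −5.99, −5.13 and −5.02 in MDCs, against −3.76, −3.35 and −3.33 in myocytes. Every MDC value was below every myocyte value, and the first set had the lowest level in either group. The mean was −5.38 in MDCs and −3.55 ± 0.30 in myocytes (SD, n = 2), a difference of −1.83 (95% interval −2.51 to −1.14, limma adjusted p = 8.82e-07), or 3.55-fold lower. Without MDC 1 it was −1.52. By Ct it was the 25th, 31st and 31st earliest miRNA in the MDC sets and the 22nd, 20th and 20th in the myocyte sets.

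miR-195, the member known for its rise in postnatal mouse heart, had levels of −8.97, −7.69 and −7.52 in MDCs, against −6.03, −6.05 and −5.99 in myocytes. The corresponding Ct values were 22.9, 21.1 and 22.0 in MDCs and 20.7, 21.0 and 21.1 in myocytes. The levels did not overlap, although by raw Ct MDC 2 and Myocyte 3 were nearly level. The mean level was −8.06 in MDCs and −6.02 in myocytes, whose 2 samples differed by less than 0.01, a difference of −2.04 (95% interval −2.72 to −1.35, limma adjusted p = 5.6e-08), or 4.10-fold lower. Without MDC 1 it was −1.58.

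miR-497, the neighbour of miR-195 on the same strand, had levels of −11.99, −9.97 and −9.83 in MDCs, against −9.83, −9.77 and −9.73 in myocytes. MDC 3 met the lowest myocyte value, so the groups overlapped, and only MDC 1 lay clearly below. The mean was −10.59 in MDCs and −9.79 ± 0.05 in myocytes (SD, n = 2), a difference of −0.80 (95% interval −1.49 to −0.12, limma adjusted p = 0.0296). That call was lost without MDC 1, when the difference was −0.11 (limma adjusted p = 0.779).

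miR-15a had levels of −10.03, −8.64 and −8.63 in MDCs, against −8.46, −8.20 and −8.22 in myocytes. The groups did not overlap, but MDC 2 and MDC 3 lay within 0.5 of the myocyte values. The mean was −9.10 in MDCs and −8.34 ± 0.17 in myocytes (SD, n = 2), a difference of −0.76 (95% interval −1.44 to −0.08, limma adjusted p = 0.0388), and it was −0.30 without MDC 1 (limma adjusted p = 0.441). The count of members called lower was thus 3 of 5 without MDC 1.

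The order of the levels also differed between the groups, with the limit that assays can differ in efficiency, so that levels of different miRNAs are comparable only roughly. In MDCs the order was miR-16, miR-195, miR-15a, miR-503, miR-497 and miR-15b, and the ranges of all neighbours in that order overlapped except those of miR-16 and miR-195, although each of the 3 readings gave the same order. In myocytes it was miR-16, miR-195, miR-15b, miR-15a, miR-497 and miR-322, and only the ranges of the last pair overlapped. miR-15b was thus last of 6 in MDCs and the third in myocytes.

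Markers of other cell types also differed between the groups. Their counts stand beside 52.2% lower and 28.0% higher among all miRNAs tested. Over all miRNA assays, 10.4% had signal in myocytes only and 9.33% in MDCs only. Of 8 striated muscle assays, 5 were lower and miR-208, miR-208b and miR-486 had no signal in MDCs, and the summed level of the list was −8.09 to −7.30 in MDCs against 4.32 to 4.57 in myocytes. Of 5 fibroblast assays, 4 were higher and the other, miR-199a-5p, was seen in MDCs alone, with a summed level of −1.81 to −0.86 in MDCs against −5.94 to −5.82 in myocytes. Both endothelial assays were lower, with a summed level of −12.8 to −11.4 in MDCs against −3.78 to −3.35 in myocytes. Of 5 leukocyte assays, 3 were lower, 1 was higher and the last, miR-142-5p, gave signal in MDCs alone, with a summed level of −6.96 to −4.61 in MDCs against −4.18 to −4.04 in myocytes. Both smooth muscle assays were lower, with a summed level of −2.90 to −1.73 in MDCs against −0.22 to −0.05 in myocytes. miR-451, the erythroid marker, had no signal in MDCs and a level of −19.1 to −18.3 in myocytes. The part of these cell types in the differences of the family was not tested.

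The direction of the 5 members with signal in both groups rested on the choice of the normalizer, since the controls on the card did not move together. U6 came 0.91 cycles earlier in MDCs than in myocytes, at a mean Ct of 13.93 in MDCs and 14.85 in myocytes, and snoRNA135 came 0.78 cycles earlier. Y1 came 3.58 cycles later and U87 13.18 cycles later in MDCs. Y1 had a Ct of 21.99, 23.31 and 25.52 in MDC 1, 2 and 3, against 19.65, 20.29 and 20.54 in Myocyte 1, 2 and 3. U87 had 30.98, 31.15 and 33.18, against 18.56, 18.53 and 18.72. U6 had 13.98, 13.39 and 14.43 in the MDC sets. The MDC values of Y1 and U87 are thus averages of readings that were late and, for Y1, far apart. The mean Ct of the detected miRNAs differed by −0.01 cycles. Relative to the levels set against U6, all differences therefore shift together by 0.13 with snoRNA135, 0.90 with the mean of the detected miRNAs, 4.49 with Y1, 6.24 with the mean of snoRNA135, Y1 and U87, and 14.09 with U87. The same shifts apply to every difference against U6 given here for other miRNAs, so that any fall of less than 6.24 turns into a rise with the mean of those 3 controls.

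With snoRNA135 the 5 differences were −4.43 for miR-15b, −1.90 for miR-195, −1.69 for miR-16, −0.67 for miR-497 and −0.63 for miR-15a, and the first 3 were called lower, as were 45.9% of all miRNAs tested. With the mean of the detected miRNAs they were −3.66, −1.13, −0.92, 0.10 and 0.14 in the same order, and again the first 3 were lower, beside 41.4% of all. Thus miR-497 and miR-15a, which were called lower against U6, had differences near 0 against the bulk of the miRNAs. With Y1, miR-15b had a difference of −0.07 and the other 4 were called higher, by 2.45 to 3.73, as were 76.4% of all miRNAs. With the mean of snoRNA135, Y1 and U87 all 5 were called higher, by 1.68 to 5.48 (89.2% of all), and with U87 all 5 were, by 9.53 to 13.33 (100.0% of all). The order of the members among themselves is the same under every normalizer by construction.

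**Figure D2:**
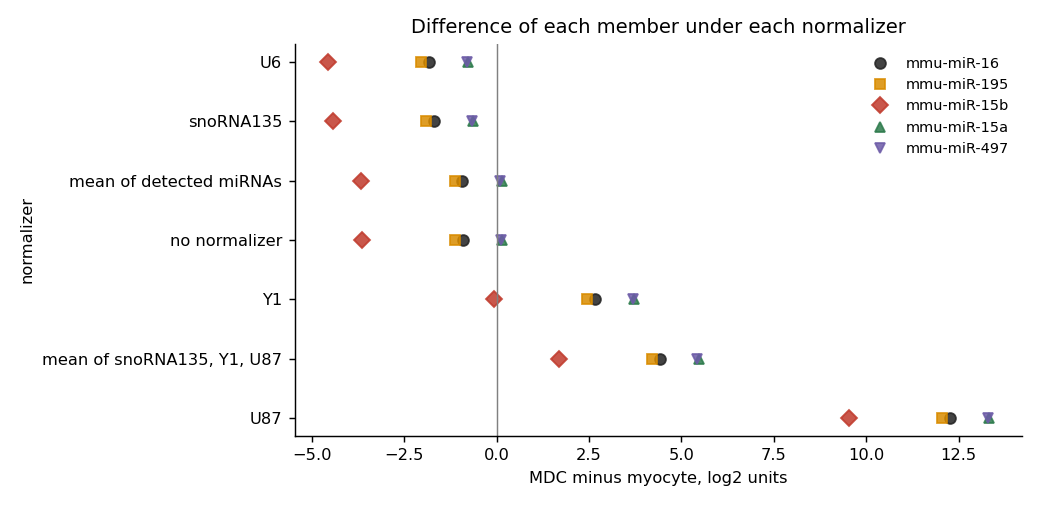
Difference of each member with signal in both groups (MDC minus myocyte, log2 units, x axis) under each normalizer (y axis). The 5 points keep their distances from each other and move as a block, from −4.56 to −0.76 with U6 to 9.53 to 13.33 with U87, with miR-15b always the lowest.

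The ratio of a pair of members in the same set needs no normalizer and no U6 well. miR-16, the earliest member, was used as the base, and the same fit was run on the 156 other miRNAs relative to it, with a shared SD of 0.33 and a standard error of 0.40. Of the 4 other members, 1 was lower and 2 were higher relative to miR-16 in MDCs, and 1 did not pass. On the card as a whole, 26.9% were lower and 52.6% higher relative to miR-16, which is 79.5% in either direction, and the median was 1.04, so a share of 3 in 4 is no more than the card shows.

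Relative to miR-16, miR-15b was at −7.03, −6.53 and −6.69 in MDCs, against −3.89, −4.15 and −4.13 in myocytes. The hairpins lie 51 bases apart, and the levels parted by −2.74 log2 units (95% interval −3.52 to −1.95, limma adjusted p = 4.15e-10), a 6.66-fold fall of miR-15b relative to miR-16. In every set of MDCs the value was lower than in any set of myocytes. miR-195, which shares 19 of 21 bases with miR-16, was at −2.99, −2.56 and −2.50 relative to it in MDCs, against −2.26, −2.70 and −2.66 in myocytes. The values overlapped, and the difference was −0.21 with a 95% interval of −0.99 to 0.57 (limma adjusted p = 0.644). The interval thus includes partings of up to about 1 log2 unit. Whether either assay reads the other miRNA in part was not tested. Without MDC 1 the differences relative to miR-16 were −2.60 for miR-15b, −0.06 for miR-195, 1.22 for miR-15a and 1.41 for miR-497.

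miR-15a was at −4.04, −3.51 and −3.61 relative to miR-16 in MDCs, against −4.70, −4.86 and −4.89 in myocytes. It was higher by 1.06 (95% interval 0.28 to 1.85, limma adjusted p = 0.0112), or 2.09-fold, and no MDC set overlapped with a myocyte set. miR-497 was at −6.00, −4.84 and −4.81 in MDCs, against −6.06, −6.42 and −6.40 in myocytes. MDC 1 lay close to Myocyte 1 and the other readings stood apart. The difference was 1.02 (95% interval 0.24 to 1.81, limma adjusted p = 0.0146), both differences being close to the median of 1.04 of all miRNAs, and the miR-497 call was lost without MDC 3 (0.82, limma adjusted p = 0.052).

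**Figure D3:**
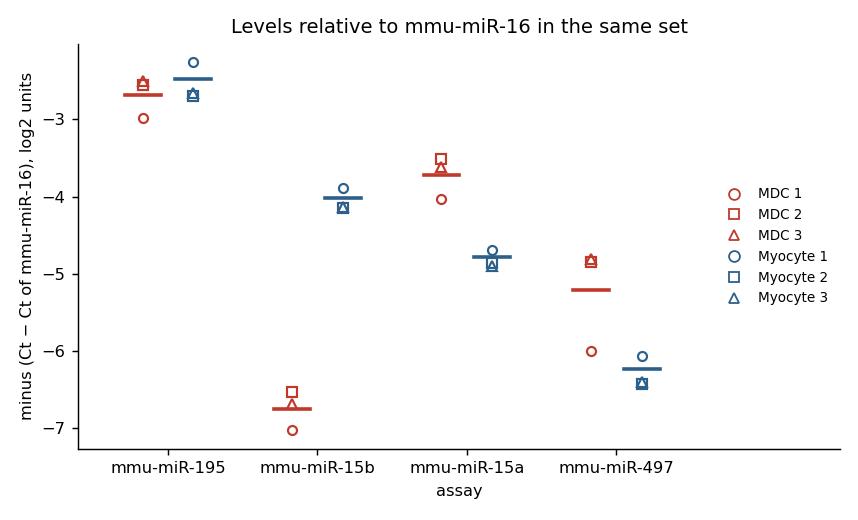
Level of 4 members relative to miR-16 in the same set (log2 units, y axis) in the 3 MDC sets (red) and the 3 myocyte sets (blue), with lines at the group means over samples. miR-15b lies lower in MDCs, miR-15a and miR-497 lie higher, and the values of miR-195 overlap.

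The ratio of miR-15a to miR-15b needs no normalizer either, with the limit that no rat sequence was at hand for the miR-15a assay. miR-15a exceeded miR-15b by 2.99, 3.02 and 3.07 log2 units in MDCs, whereas the value was −0.81, −0.70 and −0.76 in myocytes. The order of the pair thus turned over between the groups, with a difference of 3.80, or 13.9-fold in the ratio, beside an SD of 0.05 among the 3 myocyte sets. Without MDC 1, whose near-whole cycles leave its ratio close to a whole number, the difference was 3.82. For the neighbours miR-195 and miR-497 the ratio was 3.01, 2.28 and 2.31 in MDCs, against 3.80, 3.72 and 3.74 in myocytes, a difference of −1.23 (−1.47 without MDC 1), with no overlap between the groups. These pairs were set beside each other after their values had been seen, and no test was made of them.

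miR-322 and miR-503, the neighbours on the X chromosome, were read in opposite groups. miR-322 had no signal in any MDC set and a Ct of 24.7, 24.7 and 24.9 in the myocyte sets, at levels of −10.04, −9.82 and −9.79. miR-503 had a Ct of 25.0, 23.3 and 24.2 in the MDC sets, at levels of −10.99, −9.91 and −9.76, and no signal in any myocyte set. Each was thus as early in its own group as miR-497 and without signal in the other. With the missing Ct set at 40, the difference was at most −16.14 log2 units for miR-322 and at least 14.93 for miR-503 relative to U6. With the missing Ct at 40, the bound of miR-322 ran from −16.14 to −2.05 over the normalizers and that of miR-503 from 14.93 to 29.03. Neither turned its direction there, and the one nearest to 0 was that of miR-322 with U87. At a limit of Ct 35 the U6 bound of miR-322 moved from −16.14 to −11.14, further than the U87 bound lies from 0. The direction of miR-322 with U87 therefore depends on the limit taken.

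Signal in myocytes only was found for 39 of the 375 miRNAs (10.4%), and signal in MDCs only for 35 (9.33%). Among miRNAs as early as these, with a Ct under 26 in every set of the group, 9 of 117 (7.69%) were in myocytes only and 11 of 122 (9.02%) in MDCs only, so such a gap was not rare on these cards. How often a signal at that Ct is missing on 1 card was read from the myocyte cards. Of 121 wells with a Ct under 26 on either card, 1 had no signal on the other (0.826%, exact 95% binomial interval 0.0209% to 4.52%, counting error only). That well was the one of miR-98, at a Ct of 25.2. The count is not a rate of well failure, since a real difference between the cards would enter it. An assay that failed on both cards would not. The missing miR-503 was the same on both myocyte cards, whereas the missing miR-322 rests on 1 MDC card, where a failed well and a lack of the miRNA cannot be told apart.

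The other assays of the X-linked cluster did not move one way either. Their sequences are given because the assays of 1 hairpin or of 1 name parted, with the seed in capitals.
miR-542, 3′ arm: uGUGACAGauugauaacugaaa
miR-542, 5′ arm: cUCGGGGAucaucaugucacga
miR-450a, 5′ arm: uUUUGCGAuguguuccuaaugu
Of 7 assays for miR-351, miR-542, miR-450a and miR-450b, 4 had signal in every sample, of which 2 were higher and 2 lower. Over the card, 28.0% were higher and 52.2% lower. The other 3, for miR-351 (mouse and rat assays) and miR-450b-5p, had no signal in any set. miR-542-3p had levels of −15.00, −14.06 and −13.89 in MDCs, against −17.74, −16.80 and −16.83 in myocytes, and was higher by 2.96 (limma adjusted p = 3.39e-14). miR-542-5p, from the other arm of that hairpin, had levels of −20.02, −21.26 and −22.09 in MDCs, against −16.74, −16.35 and −16.35 in myocytes, and its difference was −4.58 (limma adjusted p = 1.64e-26). Both arms were late, with Ct values of 27.5 or more, and those of miR-542-5p in MDCs were 34.0, 34.7 and 36.5. The groups did not overlap for either arm, and the ratio of the arms differed by 7.54 log2 units.

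The mouse assay of miR-450a-5p had levels of −14.99, −12.88 and −12.75 in MDCs, against −14.72, −14.94 and −14.97 in myocytes. MDC 1 overlapped with the myocyte sets and the other MDC readings were higher, with a difference of 1.30 over all (limma adjusted p = 0.000417) and of 2.02 without MDC 1 (limma adjusted p = 6.67e-08). The rat assay named miR-450a had levels of −15.97, −16.83 and −17.27 in MDCs, against −12.25, −12.07 and −12.02 in myocytes, a difference of −4.54 (limma adjusted p = 3e-26). The arm of that assay is not given in the sources used here. The ratio between the mouse and the rat assay differed by 5.84 log2 units, or 57.3-fold, between the groups, and by 6.92, or 121-fold, without MDC 1.

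**Figure D4:**
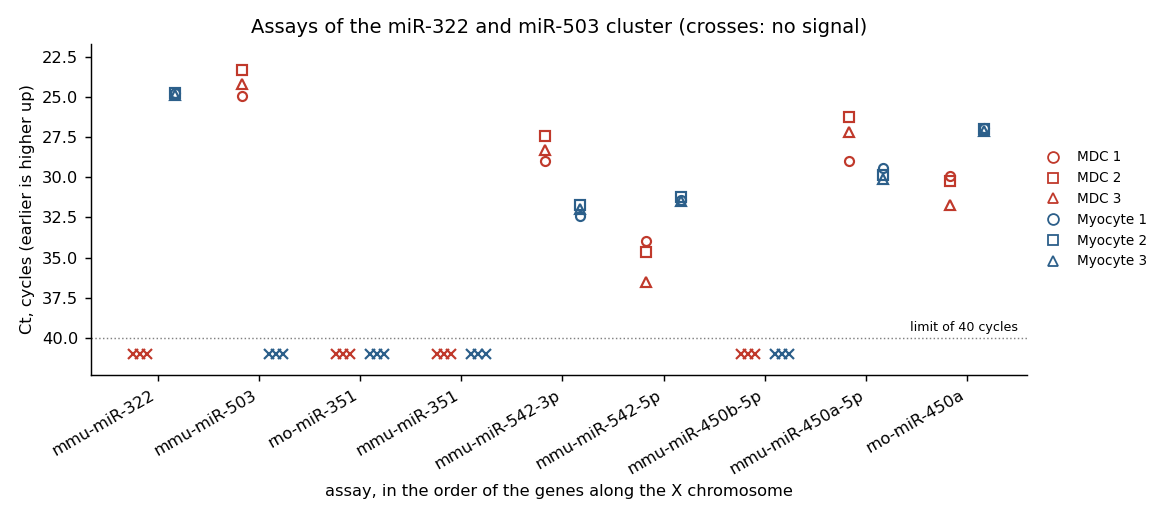
Ct (cycles, y axis, earlier values higher up) of the 9 assays of the X-linked cluster in the 3 MDC sets (red) and the 3 myocyte sets (blue), in the order of the genes in the direction of transcription, with crosses under the limit of 40 cycles where there was no signal. miR-322 is seen in myocytes only and miR-503 in MDCs only, and the arms of miR-542 part in opposite directions.

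miR-103 and miR-107 carry the start of the family seed shifted by 1 base and are often counted as its relatives. They are shown since they differ at 1 of 23 positions, close to the 3′ end, with the seed in capitals.
miR-103: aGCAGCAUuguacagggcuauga
miR-107: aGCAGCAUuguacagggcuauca
miR-103 had levels of −9.97, −9.39 and −9.60 in MDCs, against −7.96, −7.41 and −7.45 in myocytes, a difference of −1.96 (limma adjusted p = 1.54e-07). miR-107 had levels of −14.03, −13.85 and −14.58 in MDCs, against −8.81, −8.59 and −8.58 in myocytes, a difference of −5.45 (limma adjusted p = 3.48e-33). Neither overlapped between the groups. The ratio of miR-103 to miR-107 was 4.06, 4.46 and 4.98 log2 units in MDCs, against 0.85, 1.18 and 1.13 in myocytes, a difference of 3.50. An assay can read a relative that differs by so little in part, and the share of such cross-reading in these assays was not tested.

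Other miRNAs known to restrain the cell cycle, the let-7, miR-26, miR-29 and miR-34 families with miR-449a, were covered by 18 assays, of which 17 had signal in every sample. Of these, 10 were lower, 3 were higher and 4 did not pass, beside 52.2% lower and 28.0% higher over the card, with a median of −1.17 beside −0.80 for all miRNAs, and the remaining assay, miR-98, had signal on 1 myocyte card. The lowest p belonged to miRNAs that were higher in MDCs, miR-34c by 5.89 (limma adjusted p = 2.16e-36) and miR-34b-3p by 5.63 (limma adjusted p = 1.83e-34), both induced by p53 in mammals. Without MDC 1, let-7i (−0.17) and miR-34a (−0.28) lost their call as lower and let-7f (−0.82) gained one, which gave 9 lower and 3 higher with a median of −0.82. Of 13 assays for miRNAs known to promote proliferation, the miR-17 and miR-106 clusters with miR-21, miR-221 and miR-222, 7 were higher, 2 were lower, 3 did not pass and miR-221 had signal in MDCs only, with a median of 0.73 over the 12 tested, beside the same 28.0% higher and 52.2% lower over the card. Without MDC 1, miR-106b (−0.42) and miR-25 (−0.18), the 2 lower ones, lost their call, and miR-20a (1.37) and miR-92a (0.95) became higher, which gave 9 higher of 12 with a median of 1.33. In that list miR-222, which represses the cell cycle inhibitor p27, was higher by 7.99 (limma adjusted p = 5.01e-51), and miR-21 by 4.46 (limma adjusted p = 1.37e-25). The lists were put together from general knowledge, and no test of a list was made.

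The miRNAs whose pattern over the 6 sets lay nearest to each member were read from the root mean square distance between levels centred on their mean, among 156 candidates. The nearest was miR-135a for miR-195 (distance 0.0362), miR-146a for miR-497 (0.0476), miR-24 for miR-16 (0.0676), let-7e for miR-15a (0.0709) and miR-190 for miR-15b (0.154). None of the nearest was another member of the family, and the next nearest of miR-16 was miR-103 (0.192). The 6 sets share 3 cards, so that these distances rest on few independent points.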

How the data were processed

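The authors isolated RNA with the mirVana Paris kit, reverse-transcribed and pre-amplified it with Megaplex primers, and read it on the TaqMan Rodent MicroRNA Set A Array (version 2.0) with SDS 2.3 software. The threshold and baseline settings are not given in the sources used here. The deposited values are Ct scores in PCR cycles, a well without signal being undetermined or 40. A deposited table of Ct minus mean U6 Ct, the normalization of the authors, differed from the same subtraction on the Ct values by at most 5e-05 cycles and was used only for that check. The methods name 2 biological and 2 technical repeats without saying which sets they are, and the paper's figure of miRNA levels gives n = 3. The count of 1 MDC sample used here differs from both. The molecules behind a Ct were not counted, and the precision is limited by the few samples.

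Levels, the averaging of readings of 1 card, and the limma fit (limma 3.58.1, R 4.3.3, threshold 0.05) are described with the results. The fit was run on simulated data with known changes, with the shared SD used for every sample. That run therefore does not test whether MDCs vary as the myocytes do. Binomial intervals were taken with scipy 1.17.1 in Python 3.11.15 and figures drawn with matplotlib 3.10.9. Hairpin positions and mature sequences were taken from RefSeq tables (GRCr8), in which 6 of the 7 members matched by name. The members and the lists were chosen with earlier results of these data known. All members, the cluster partners and miR-103 and miR-107 were named, along with the 2 lowest p of each other list and the nearest miRNA in pattern, and miR-98, the markers without signal and list members whose call changed without MDC 1 were named after their values had been seen. The alternatives were other normalizers or none, limits of Ct 35 and 32, missing Ct at 40, other moderation of the variance, all 6 sets as samples with and without the replicate number as a block, single MDC readings, each set left out, and the unpaired test of the methods. Leaving out MDC 1 together with another normalizer, the lists and ratios without MDC 1, and miR-15a as the base of the ratios, were added after seeing the data.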

Additional observations from a re-analysis of the deposited data

How the results depend on the processing

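Relative to U6, 5 members were called lower and 0 higher, of the 5 with signal in both groups. miR-322 and miR-503 were left out of these member counts in every alternative. That holds also with missing Ct at 40, where their differences were −16.14 and 14.93. The number lower was 3 with the mean or the median of the detected miRNAs, with snoRNA135, with no normalizer, with missing Ct at 40, with all 6 sets or the MDC readings as separate samples, with MDC reading 2 or 3 alone, with MDC 1 left out under the mean of the detected miRNAs or snoRNA135 (both chosen after seeing the data), and in the unpaired test of the methods with or without adjustment. It was 0 with Y1, U87 or the mean of these and snoRNA135, where 4, 5 and 5 members were higher. Over all miRNAs the counts with these 3 normalizers were 16, 0 and 10 lower and 120, 157 and 140 higher. With missing Ct at 40, 80 were higher, a count that does include miRNAs with a filled Ct. With 1 set left out, 3 (without MDC 1) to 5 members, 74 to 87 miRNAs lower and 38 to 54 higher were called, and 2 (without MDC 3) to 3 members relative to miR-16. Leaving out Myocyte 1 left 1 sample in each group and no test. The differences that turned were, with the mean of the detected miRNAs, their median, no normalizer, and the mean without MDC 1, 0.14, 0.077, 0.15 and 0.22 for miR-15a and 0.10, 0.037, 0.11 and 0.41 for miR-497. With the mean of the other controls, Y1 and U87 they were 5.48, 3.73 and 13.33 for miR-15a, 5.44, 3.69 and 13.29 for miR-497, 4.41, 2.66 and 12.27 for miR-16, and 4.20, 2.45 and 12.06 for miR-195, and for miR-15b they were 1.68 with the mean and 9.53 with U87. At limits of Ct 35 and 32 the bounds relative to U6 were −11.14 and −8.14 for miR-322 and 9.93 and 6.93 for miR-503. For sets of the same number, the deviations from the group means had correlations of 0.117, −0.0770 and 0.238, and the other pairs of sets had −0.193 to 0.0802. The sets share cards, so these pairs are not independent, and whether sets of the same number belong together is not settled. With the number as a block over all 6 sets, 3 members, 69 miRNAs lower and 34 higher were called. The causes of these changes beyond the shifts of the controls were not tested.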
